A study of Mus musculus with 8 samples.

Results

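Late-opening regions are stretches of chromatin of the mouse acute myeloid leukaemia line AML246, defined by the summits of accessibility peaks. They held no summit before doxycycline (Dox) or after 4 days of it, and held one at both day 8 and day 12. They numbered 3600 of 68800 regions, a share of 5.23%. The regions were built from the peak summits of 8 ATAC-seq libraries on chromosomes 1 to 19, X and Y: each summit was extended by 150 bp to both sides and overlapping intervals were merged. A region with a summit from a given library counted as open in it, so "not open" means that no summit lay there. It does not mean that the chromatin was shown to be closed. Only summits were given, so a peak with its summit outside a region can still reach into it. The day-0, day-4, day-8 and day-12 lists chose the members, and values from those 4 lists are given as description. The day-12 CD11b-high list and the 3 lists made after withdrawal did not enter the rule, though their summits helped to set the borders of the merged regions. Comparisons use these 4 lists, position or sequence, and ranks, percentiles and counts from the choosing lists are description only.

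All cells were AML246 grown in medium with IL-3. Dox at 0.1 µg/mL was given from day 0 and taken away at day 12, and the labels name these phases PU.1 restoration and PU.1 knockdown. Total viable cells were taken before Dox (labelled untreated), after 4, 8 and 12 days on Dox, and 4, 8 and 12 days after its removal. A further library came from the CD11b-high viable cells of day 12, titled MAC1. Every group was 1 library prepared from 50000 cells, so there was no spread between replicates, no test between conditions was possible and no p-value is given. The labels' extraction text names FACS and ChIP, while the library preparation and the series title name ATAC-seq, which the data were taken to be. How the Dox control of PU.1 was built into the line, and whether the line is a single clone, was not stated in the labels.

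PU.1, encoded by Spi1, is an ETS-family transcription factor that binds purine-rich DNA around a GAGGAA core and is needed at high level for macrophages and neutrophils to form. Reduced PU.1 blocks myeloid differentiation and can lead to acute myeloid leukaemia in mice. In ATAC-seq a transposase inserts adapters into accessible DNA, so peaks mark promoters and enhancers free of packed nucleosomes. At enhancers of myeloid cells PU.1 often lies near AP-1 (FOS and JUN dimers), C/EBP and RUNX factors.

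The lists held between 31867 and 51060 summits on the chromosomes used, with 46965 at day 8, 35113 at day 12 and 36215 in CD11b-high cells. Their read depth was not given in the sources used here. A summit's score is the −log10 of its p or q value within its own library, and the lowest scores lay just above the value for 0.05. Scores are therefore read only within a list, and a percentile below ranks a region's best score among all regions open in the same library.

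Among the late-opening regions, those at promoters could be read as sequence. Promoter windows of 300 bases came from RefSeq (GRCm38.p6, the build also called mm10), and 21263 of them were searched. Each ran from 250 before to 50 after a start site of a protein-coding gene, which need not be the outer end of the gene. A late-opening region put its day-12 summit into 96 of these windows, through 92 regions. Of these windows, 37 belonged to regions with no day-0 or day-4 summit within 1 kb, called isolated here, and 59 to regions with such a summit close by, called flanked. The 8 isolated windows with the strongest summits, ranked by the lower of the day-8 and day-12 percentiles, are printed 5′ to 3′ on the strand of the gene, and Immt, the strongest flanked window, follows for contrast. Capitals mark GAGGAA (PU.1/ETS core), TGTGGT (RUNX core) and TGANTCA (AP-1), each searched on both strands, so that TTCCTC and ACCACA are the first 2 motifs on the other strand. No capital in a window means that none of the 3 was found in it. The PU.1/ETS core stands for GAGGAA alone, so a window without it can hold ETS-type sites of other sequence, which were not searched.
Lilra6 (chr7:3915452-3915751, minus strand): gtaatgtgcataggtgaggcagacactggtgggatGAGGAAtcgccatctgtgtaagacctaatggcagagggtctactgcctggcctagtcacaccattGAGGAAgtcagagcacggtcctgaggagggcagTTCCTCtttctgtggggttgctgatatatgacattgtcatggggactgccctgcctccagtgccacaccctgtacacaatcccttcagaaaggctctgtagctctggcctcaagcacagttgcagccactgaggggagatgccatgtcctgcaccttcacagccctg
Sema4d (chr13:51756634-51756933, minus strand): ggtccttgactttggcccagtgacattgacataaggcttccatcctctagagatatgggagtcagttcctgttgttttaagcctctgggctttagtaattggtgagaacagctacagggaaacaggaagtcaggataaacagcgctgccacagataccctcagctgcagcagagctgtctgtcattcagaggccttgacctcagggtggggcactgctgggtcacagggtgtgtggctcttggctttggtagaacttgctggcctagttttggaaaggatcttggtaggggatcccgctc
Bcl2a1d (chr9:88731801-88732100, minus strand): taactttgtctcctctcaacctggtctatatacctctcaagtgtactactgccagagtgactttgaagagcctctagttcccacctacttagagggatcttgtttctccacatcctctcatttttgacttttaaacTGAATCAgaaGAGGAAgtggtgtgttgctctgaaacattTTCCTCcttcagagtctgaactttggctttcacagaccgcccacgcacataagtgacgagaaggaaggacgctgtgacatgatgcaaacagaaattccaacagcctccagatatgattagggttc
Ncf1 (chr5:134229576-134229875, minus strand): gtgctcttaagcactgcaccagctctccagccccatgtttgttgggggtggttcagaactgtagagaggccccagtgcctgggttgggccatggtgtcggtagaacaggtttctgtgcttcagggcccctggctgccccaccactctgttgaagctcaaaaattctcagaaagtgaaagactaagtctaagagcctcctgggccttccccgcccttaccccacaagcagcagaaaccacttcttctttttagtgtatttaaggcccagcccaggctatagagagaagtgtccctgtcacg
Il7r (chr15:9529827-9530126, minus strand): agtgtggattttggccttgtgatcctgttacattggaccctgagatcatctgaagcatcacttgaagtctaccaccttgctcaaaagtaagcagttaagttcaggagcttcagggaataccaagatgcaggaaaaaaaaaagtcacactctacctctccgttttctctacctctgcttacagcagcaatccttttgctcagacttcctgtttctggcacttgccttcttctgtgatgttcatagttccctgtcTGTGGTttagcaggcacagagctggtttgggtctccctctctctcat
Prg3 (chr2:84987965-84988264, plus strand): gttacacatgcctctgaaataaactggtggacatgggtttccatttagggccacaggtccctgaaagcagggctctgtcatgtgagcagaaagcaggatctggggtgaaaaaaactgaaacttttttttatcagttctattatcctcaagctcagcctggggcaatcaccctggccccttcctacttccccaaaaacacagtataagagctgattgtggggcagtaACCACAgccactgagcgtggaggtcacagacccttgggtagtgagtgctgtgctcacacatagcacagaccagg
Gm15448 (chr7:3825711-3826010, minus strand): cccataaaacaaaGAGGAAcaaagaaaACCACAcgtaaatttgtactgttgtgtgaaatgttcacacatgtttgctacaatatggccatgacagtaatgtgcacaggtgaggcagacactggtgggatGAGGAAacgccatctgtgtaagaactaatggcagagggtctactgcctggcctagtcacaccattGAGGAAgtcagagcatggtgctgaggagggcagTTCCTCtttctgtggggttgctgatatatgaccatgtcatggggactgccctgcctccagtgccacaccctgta
Syk (chr13:52596632-52596931, plus strand): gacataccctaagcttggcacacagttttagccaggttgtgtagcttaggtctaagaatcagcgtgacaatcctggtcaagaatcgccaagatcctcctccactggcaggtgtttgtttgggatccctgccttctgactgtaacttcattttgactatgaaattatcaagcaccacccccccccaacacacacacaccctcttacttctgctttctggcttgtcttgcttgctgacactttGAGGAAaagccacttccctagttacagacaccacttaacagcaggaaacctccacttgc
Immt (chr6:71831070-71831369, plus strand): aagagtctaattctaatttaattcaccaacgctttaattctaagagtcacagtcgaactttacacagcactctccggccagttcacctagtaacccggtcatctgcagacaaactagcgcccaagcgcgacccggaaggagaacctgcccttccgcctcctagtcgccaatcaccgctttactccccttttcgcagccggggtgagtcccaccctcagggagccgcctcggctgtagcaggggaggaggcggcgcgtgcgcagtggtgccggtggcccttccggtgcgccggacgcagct

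The Lilra6 window held 3 PU.1/ETS cores and the Gm15448 window 4, and much of the text of these windows is alike, so reads could be shared between the pair and their separate peaks are uncertain. The same holds for Bcl2a1d and Bcl2a1a, near-identical genes of the BCL2 family. In the Bcl2a1d window a match to the AP-1 search (TGAATCA) stood 3 bases before a PU.1/ETS core. Syk carried 1 core, Il7r and Prg3 a RUNX core each, and Sema4d and Ncf1 had none of the 3. The Sema4d and Syk windows stood at start sites inside the gene, and their regions lay 36872 and 14265 bp from the nearest gene end. Immt had none either.

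Over all 37 isolated windows, 20 held a PU.1/ETS core, 54.1% with an exact 95% interval of 36.9 to 70.5. The core was present in 20.3% of the 59 flanked windows (11 to 32.8) and in 27.4% of all 21263 windows. The difference of isolated minus flanked was 33.7 percentage points (14 to 50.8). A RUNX core stood in 21.6% of isolated windows against 3.39% of flanked windows and 15.0% of all windows. The median GC content also differed, at 51.7% in isolated and 62.0% in flanked windows, and its part in these differences was not tested. The Sp/KLF box GGGCGG, common in constitutively used promoters, went the other way, at 29.7% of isolated, 62.7% of flanked, 72.7% of windows open at all 4 restoration times and 46.2% of all windows.

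Isolated late promoters were also set beside promoters that opened by day 4, a comparison added after seeing the data. A TGANTCA match was found in 8 of 37 isolated late windows, 21.6% (9.83 to 38.2), against 2 of 39 isolated early-opening windows, 5.13% (0.627 to 17.3), where early-opening means open at day 4, 8 and 12 but not at day 0, and isolated means no day-0 summit within 1 kb. Among all 21263 windows the share was 6.99%. Late minus early was 16.5 points (0.905 to 32.5), and with the near-identical Bcl2a1 and Lilra6 pairs counted once each it was 14.9 points, with an interval that held 0 (-0.536 to 31.2). The PU.1/ETS core was found in 54.1% of isolated late and 76.9% of isolated early windows, a difference of -22.9 points (-41.7 to -1.54). Against all 87 early-opening windows, flanked ones included, the AP-1 difference was 19.3 points (7.61 to 35.0), while that of the PU.1/ETS core turned to 1.18 points (-17.5 to 19.3), with 52.9% in the early windows. For RUNX the difference from isolated early windows, -11.7 points, had an interval that held 0 (-30.4 to 8.38). The Sp/KLF box stood in 29.7% of isolated late and 12.8% of isolated early windows. That difference, 16.9 points, was as large as the AP-1 one, and its interval also held 0 (-1.60 to 34.5). Median GC content was 51.7% in both sets. The windows with AP-1 were those of Bcl2a1d, Havcr2, P2ry14, Tcp11x2, Ugt1a6a, Shc1, Bcl2a1a and Fblim1, and 6 of these 8 also held a PU.1/ETS core. The search let the middle base N be any base. P2ry14, Tcp11x2, Shc1 and Fblim1 held TGACTCA or TGAGTCA, while Bcl2a1d, Bcl2a1a, Havcr2 and Ugt1a6a held TGAATCA or TGATTCA. Shares for a stricter AP-1 motif, with C or G alone in the middle, were not computed. Differences were taken for 4 motifs against 4 sets of windows, and their intervals cover counting error in few windows, some of them near-identical copies, and a match is not a bound site.

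**Figure D1:**
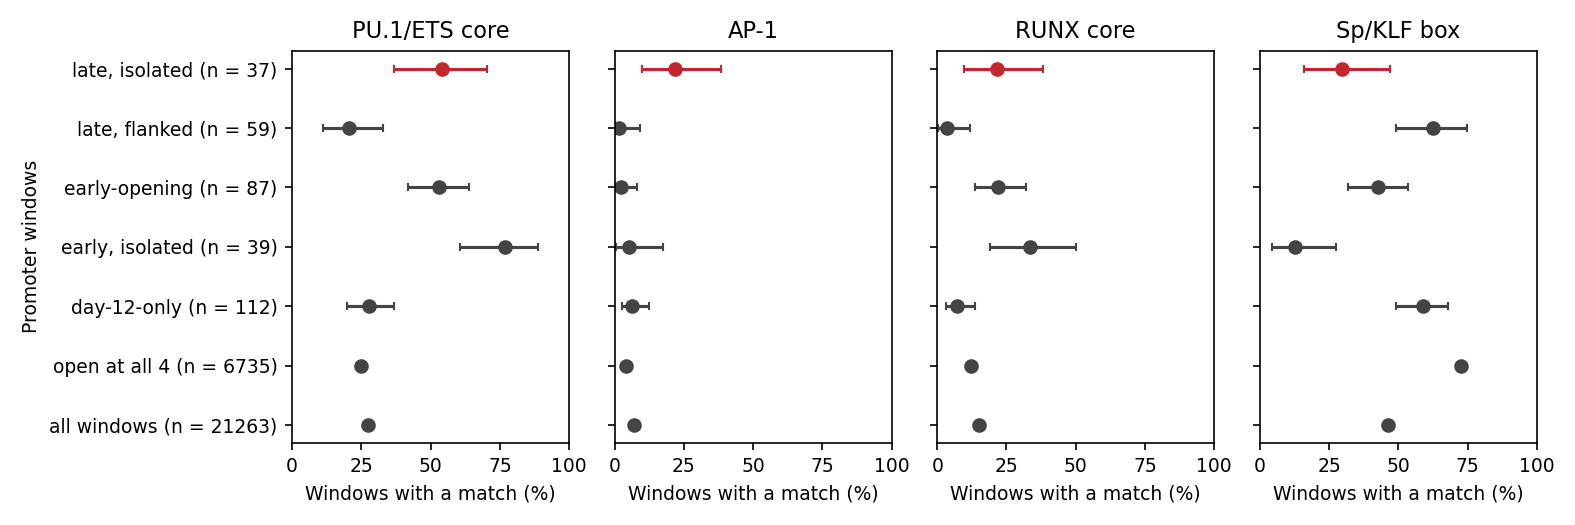
Share of 300-base promoter windows with at least 1 match to each motif on either strand, in percent, by the class of region whose day-12 summit falls in the window; points are shares and bars exact 95% intervals covering counting error only. Isolated late-opening windows reach 54.1% for the PU.1/ETS core and 21.6% for AP-1, against 20.3% and 1.69% in flanked late-opening windows.

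Of the genes behind the 37 isolated promoters, 17 are described here by role, picked after their names were seen and no sign of a theme. The receptors were Lilra6 (a leukocyte immunoglobulin-like receptor), Il7r (interleukin-7 receptor), Havcr2 (TIM-3), P2ry14 and Gpr84 (G protein-coupled receptors) and Cd5. Signalling and effector genes were Syk (kinase downstream of ITAM receptors), Nfam1 (an ITAM protein), Was (the actin regulator lost in Wiskott-Aldrich syndrome), Ncf1 (the p47phox subunit of the NADPH oxidase) and Prg3 (an eosinophil granule protein). Irf4 and Batf encode transcription factors that act together in lymphocytes and dendritic cells, Il4 and Ebi3 encode a cytokine and a cytokine subunit, and Bcl2a1a and Bcl2a1d encode anti-death proteins. The other 20 were Sema4d, Gm15448, Selenon, Igf1r, Wfdc10, Calm4, Arhgef3, Gm1966, Nadk, Tcp11x2, Pgbd1, Ugt1a6a, Mroh3, Shc1, Azgp1, Mark1, Fblim1, Zfp385a and a pair of RIKEN clone genes. Of the 37, 21 were open in CD11b-high cells, 20 at 4 days off, 13 at 8 days off and 4 at 12 days off. Over all late-opening regions the shares were 60.9%, 59.1%, 33.3% and 16.8% in the same order. Of the 37 promoters, 16 were open at no time off, against 35.1% of all late-opening regions. Of these 16, 10 were open in CD11b-high cells.

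At Lilra6 the scores were 17.0 at day 8, 11.6 at day 12 and 11.7 in CD11b-high cells, with no summit at any time off; the day-12 summit lay at position -106 from the gene's start. At Bcl2a1d they were 8.51, 11.7 and 8.64, again with none off Dox. At Il7r they were 12.4, 6.91 and 7.09, and at Prg3 10.8, 6.82 and 7.48, with none off Dox at either. These 4 promoters shared a pattern: a call in the CD11b-high sort and none off Dox. Their calls at day 8 and day 12, and the lack of one at day 0 and day 4, were fixed by the rule. Of the 37 isolated promoters, 10 had this pattern, and so did 746 of all 3600 late-opening regions.

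The pattern was not common to all strong promoters. Sema4d, a semaphorin of immune cells, scored 13.1 at day 8, 13.6 at day 12, 3.25 in CD11b-high cells, 15.7 at 4 days off and 8.08 at 8 days off, with no summit at 12 days off. Syk scored 7.43 at day 8 and 7.41 at day 12, and Ncf1 17.1 and 7.02, and neither had a summit in CD11b-high cells or off Dox. Irf4, with weaker summits at day 8 and day 12, did have the pattern. Its scores were 4.39 at day 8, 3.57 at day 12 and 7.48 in CD11b-high cells, with none off Dox. The plot of promoter scores gives the 20 strongest in all 8 libraries.

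**Figure D2:**
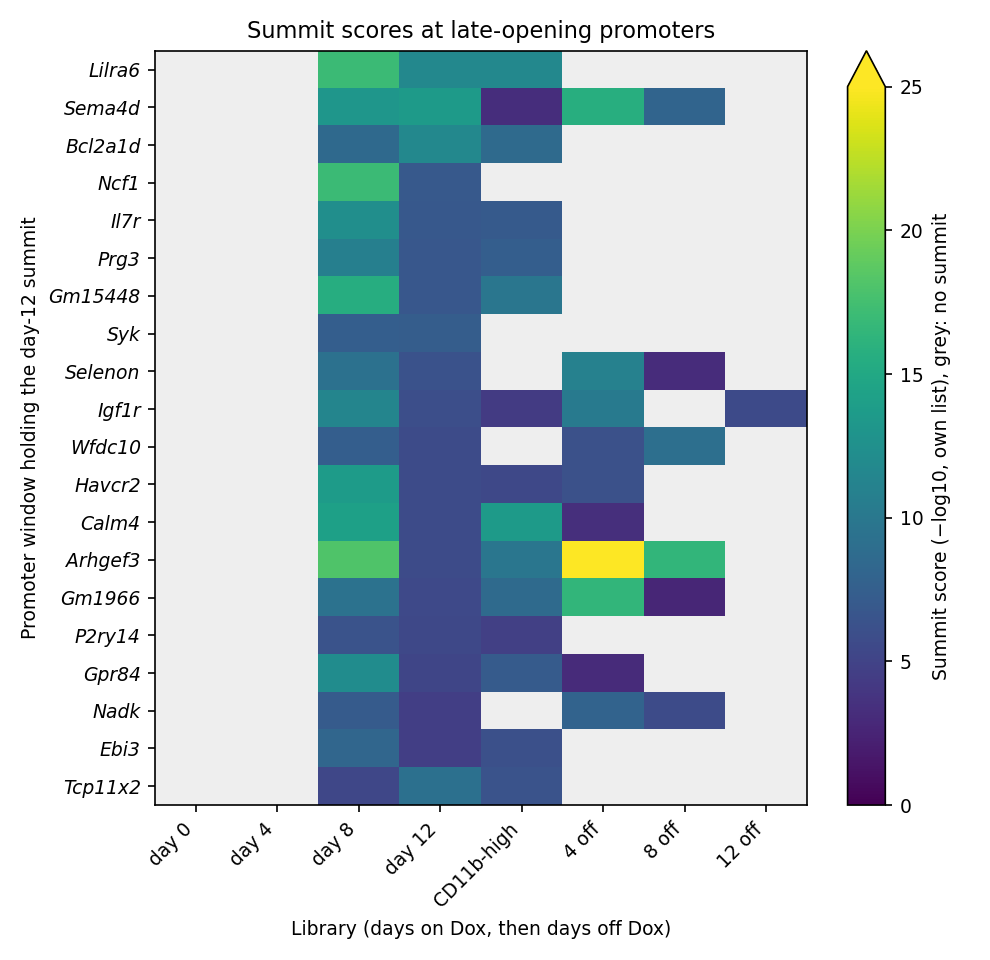
Summit scores (−log10 of p or q in each library's own list, colour) at the 20 isolated late-opening promoters with the strongest summits, in rows, across the 8 libraries, in columns; grey marks no summit. Day 0 and day 4 are grey by the rule, and Lilra6, Bcl2a1d, Ncf1, Il7r, Prg3, Gm15448 and Syk are grey at all 3 times off Dox.

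Most late-opening regions lay away from gene ends. Within 1 kb of either end of a protein-coding gene were 413, or 11.5% (10.4 to 12.6), against 21.9% of all regions. Inside genes but farther than 1 kb from the ends were 48.2%, against 41.9% of all regions, and outside genes 40.4%. Early-opening regions were near gene ends in 8.41%, day-12-only regions in 29.4% and regions open at all 4 restoration times in 40.1%. The table of genes used for position gives spans and no exons, so exons, introns and untranslated regions were not separated. A median late-opening region was 360 bp long, against 347 bp over all regions, and its day-8 and day-12 summits lay a median of 27 bp apart.

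Strength and position went together, and so did a nearby earlier summit. The median member had a score of 8.51 at day 8, percentile 35.7, and of 5.69 at day 12, percentile 24.0, and only 355 members, 9.86%, scored at least 10 in both lists. Summits of day 0 or day 4 lay within 1 kb of 629 members, and 2971 members were isolated. Of the 20 strongest members 19 were flanked and 14 were near a gene end, and of the 100 strongest 78 were flanked and 59 near a gene end. Near gene ends 67.1% of members were flanked. Flanked members were near gene ends in 44.0% and isolated members in 4.58%. No member came nearer than 151 bp to an earlier summit, since closer ones were merged and so excluded.

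At the edges of the rule the calls were weak. The lowest scores of a member were 1.57 at day 8 and 1.5 at day 12. Of the 3399 early-opening regions, kept out by a day-4 summit alone, 343 had a day-4 score of at most 4, the lowest being 1.4. Of 1997 regions kept out by a day-0 summit alone, 219 had a day-0 score of at most 4. Among the members 76 scored at most 4 in both lists that let them in.

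The 8 strongest members were all flanked, at 179 to 484 bp. The strongest, inside Immt (a subunit of the mitochondrial MICOS complex) and 183 bp from its end at chr6:71831060-71831488, scored 58.4 at day 8, 41.1 at day 12 and 37.9 in CD11b-high cells, with no summit at any time off Dox. The region 71 bp outside Cdk19 (a kinase of the Mediator complex), at chr10:40349013-40349419, scored 70.3, 32.6 and 40.9, and then 69.3, 60.3 and 41.6 at 4, 8 and 12 days off. Both had an earlier summit within 250 bp of the region's edge, at 249 and 225 bp. The remaining 6 of these regions were assigned to Sp4, Mthfd1l, Plcb1, Usp48, Mia3 and Sugp2, and those at Usp48 and Sugp2 were not open in CD11b-high cells. Among members open in CD11b-high cells, the strongest open at all 3 times off were at Cdk19, Kdm4c, Adipor2 and Ripk1, and those open at none included Immt, Kat7 and Suco. All of these were flanked.

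The strongest isolated members, listed after their values were seen, were a different set and mostly distal. Inside Chrm3 (a muscarinic receptor), at chr13:10253041-10253420 and 107832 bp from the gene's nearest end, the scores were 30.2 at day 8, 21.5 at day 12, 13.9 in the CD11b-high sort and 14 at 4 days off, with no summit later. The region chr10:98792082-98792713, 122233 bp from the nearest protein-coding gene, scored 31.0, 18.6, 23.6 and 26.5 in the same 4 libraries. The region chr5:142690424-142690732, 1900 bp outside Slc29a4 (a nucleoside and monoamine transporter), scored 23.2, 26.7, 23.7 and 17.1. Inside Arhgap17, at chr7:123365817-123366158, the scores were 26.5, 16.3, 14.6 and 31.1, then 15.9 and 11.6 at 8 and 12 days off. Each of the 8 strongest isolated members was open at 4 days off and in the CD11b-high sort, and 1 of them, at Arhgap17, at 12 days off.

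Late-opening regions were spread thinly over many genes. Of the 3600, 3282 had a protein-coding gene within 100 kb, 5.08% of the 64638 regions with such a gene, and they fell to 2688 genes, of which 2216 had 1 region, 372 had 2, 86 had 3 and the rest 4 to 6. Assignment is to the nearest gene and does not show which gene a region acts on.

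Pde4d, a cyclic AMP phosphodiesterase gene, and Sema4d held 6 late-opening regions each, of 45 and of 18 regions. All 6 at Pde4d (chr13:108654177-109955969) were inside the gene and isolated. Day-8 scores ranged between 3.97 and 12.8 and day-12 scores between 2.25 and 10.4, 4 were open in CD11b-high cells, and 5 were open at 4 days off, 2 at 8 days off and 1 at 12 days off. Sema4d (chr13:51685529-51793678) differed from it in the sort: 1 of its 6 was open in CD11b-high cells, while 5 were open at 4 days off, 3 at 8 days off and 1 at 12 days off. Of these, 4 formed the longest run of late-opening regions, with gaps of at most 10 kb, at chr13:51756621-51776718, and all 4 were open at 4 days off. Runs of 3 lay at Cdk20 and at Ctsd.

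The genes with 5 were Vps13d (lipid transfer), Clasp2 (microtubule binding), St6galnac3 (a sialyltransferase) and Zmiz1 (a transcriptional coregulator). They went different ways off Dox: at 4 days off all 5 regions of Vps13d were open, against 3 of Zmiz1, 2 of Clasp2 and 1 of St6galnac3. The strongest region of the St6galnac3 group, inside the gene at chr3:153566169-153566478, scored 19.3 at day 8, 11.5 at day 12 and 16.2 in CD11b-high cells and had no summit off Dox. Maml3 (a Notch coactivator), Hectd4, Hlcs (holocarboxylase synthetase), Rab27b (a GTPase of secretory granules), Nrg2 (a neuregulin) and Gcnt1 (a glycosyltransferase) held 4 each. At Rab27b all 4 were open in CD11b-high cells, at Nrg2 2 of 4.

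Gene lists for blood lineages and functions gave few members each, and the median number per gene was 0 in every list, as over all genes. Beside each list's share stands the 5.08% over all regions assigned to a gene. No late-opening region fell to the 20 monocyte and macrophage genes, 0 of 63 regions. Of these 63, 9 were early-opening, against 3144 of all 64638 regions assigned to a gene. Itgam and Csf1r, which encode CD11b and the M-CSF receptor, had 0 among 6 and 3 regions. In CD11b-high cells 3 of the 6 Itgam regions were open and 2 of the 3 of Csf1r.

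The list of dendritic cell and MHC class II genes had 5 of 60 regions, 8.33%. They were at H2-Aa (an MHC class II chain), Ciita (the class II transactivator), Cd74 (the invariant chain), Irf4 and Xcr1. The last, a chemokine receptor of cross-presenting dendritic cells, was outside the naming rule. All 5 were isolated, 4 were open in CD11b-high cells and 0 at any time off. Of all 3600 late-opening regions 2971 were isolated, 60.9% were open in CD11b-high cells and 35.1% at no time off. The region 5924 bp outside H2-Aa, at chr17:34293593-34293901, scored 8.56 at day 8, 10.9 at day 12 and 9.50 in CD11b-high cells. The region inside Ciita, at chr16:10495990-10496348, scored 9.62, 8.75 and 9.66. The region 8610 bp outside Cd74, at chr18:60795050-60795428, scored 6.38, 6.82 and 7.48. Nothing was called at these 3 off Dox.

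Granulocyte genes had 4 of 62 regions, 6.45%. Both regions of Retnlg, a resistin-like gene of neutrophils, were late-opening: at chr16:48868651-48869001 the scores were 9.62 at day 8, 4.45 at day 12 and 9.78 in CD11b-high cells, and at chr16:48864925-48865405 they were 7.43, 6.82 and 5.85, with none off Dox. The S100a9 region, near a calcium-binding protein gene of neutrophils, was the opposite case, with 3.47 at day 8, 2.59 at day 12, none in CD11b-high cells, and 12.8, 4.27 and 5.96 at 4, 8 and 12 days off. Mmp8 (neutrophil collagenase) had 1 region, open in CD11b-high cells and not off Dox. Eosinophil genes had 2 of 24, at Prg3 and Il5ra, and mast cell genes 2 of 43, at Kit and Mitf.

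Receptor signalling and phagocyte genes had shares near the overall one. Pattern recognition and immunoreceptor genes had 10 of 142 regions, 7.04%, with 3 at Syk, 2 at the Src-family kinase Lyn and 1 each at Tlr7 (a sensor of RNA) and Clec4e (Mincle). The Tlr7 region, at chrX:167318780-167319152, scored 4.39 at day 8, 9.19 at day 12 and 14.9 in CD11b-high cells, then 5.21 at 4 days off and none later. Lysosome, phagosome and NADPH oxidase genes had 8 of 106, 7.55%, but 4 of these 8 were flanked, among them those at Ncf4 (p40phox), Atp6v0d2 (a proton pump subunit) and Npc1 (cholesterol export). At Ctsd (cathepsin D) all 3 were isolated and weak, with day-12 scores of 3.47 to 7.31.

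Transcription factor genes had 11 of 199, 5.53%: 3 each at Etv6 (an ETS repressor) and Runx1, 2 at Nr4a1 and 1 at Fosl2, an AP-1 subunit. At Runx1 the day-8 scores were 9.62, 11.6 and 10.8 and the day-12 scores 3.57, 3.38 and 6.82, and all 3 regions were open in CD11b-high cells. At Fosl2 the scores were 5.23 at day 8, 9.26 at day 12, 6.97 in the CD11b-high sort and 6.75 at 4 days off. Adhesion genes had 8 of 143, among them 2 at Cd44 (the hyaluronan receptor), both open in the CD11b-high sort and at 12 days off. Cytokine receptor genes had 6 of 123, with Ifngr1, Il4ra, Tgfbr2 and Il6ra, and inflammatory genes 4 of 100, with Alox5 (5-lipoxygenase), Nos2 (inducible nitric oxide synthase) and Il1b.

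After the monocyte and macrophage genes, the lowest shares were those of proliferation, death and progenitor genes, at 2 of 119 for the cell cycle (Cdk6 and Mki67), 3 of 129 for stem and progenitor genes and 3 of 96 for BCL2-family and death genes. Lists of other lineages gave shares in the same range as the myeloid ones: 4 of 55 for T cells (Gata3 and Il7r), 2 of 30 for B cells, 4 of 58 for megakaryocytes, 1 of 19 for erythroid cells and 2 of 26 for tissues outside blood (Alb and Neurod1). Housekeeping genes had 3 of 53, among them those at Actb and Ywhaz, and all 3 were flanked. With counts this small, no list is set apart from the overall share here.

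Spi1 itself had 7 regions, of which 1 was late-opening, inside the gene at chr2:91113258-91113746 and 2257 bp from its end. Its scores were 7.43 at day 8, 6.82 at day 12, 2.32 in CD11b-high cells, and 18, 5.17 and 4.72 at 4, 8 and 12 days off, so it was called in every library from day 8 on. Kit, the stem cell factor receptor, had 1 late-opening region of 10, 14856 bp outside the gene at chr5:75671399-75671757, with 3.92 at day 8, 4.60 at day 12, 6.55 in CD11b-high cells and none off Dox.

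In CD11b-high cells of day 12, 2194 late-opening regions were open, 60.9% (59.3 to 62.5), against 51.1% of all 68800 regions. The share was 84.0% in early-opening, 21.7% in day-8-only, 24.6% in day-12-only and 93.3% in regions open at all 4 times. The 51.1% is not a like-for-like base. Every member had to be open at day 12, while 34109 of all regions were. All regions also include those called in the CD11b-high list alone or only off Dox. Late minus early was -23.1 points (-25.1 to -21.1), and late minus day-12-only 36.4 points (34.0 to 38.7). Late-opening regions were weaker than early-opening ones in the lists that chose them, with a median percentile of 35.7 against 54.4 at day 8 and 24.0 against 41.1 at day 12. Within 4 ranges of day-12 score, chosen after seeing the data and not matched for day-8 score, the late share was the lower one in each: in regions scoring at most 4 the shares were 46.3% of late and 61.4% of early, and above 9 they were 84.1% and 96.3%. The part of day-8 strength was not tested. Nor was that of the rule itself, by which early-opening regions needed calls in more of the choosing lists than late-opening ones. Day-8-only and day-12-only regions needed fewer. Members open in CD11b-high cells scored at a median percentile of 30.8 there, close to their own 29.6 at day 12, and 1129 of the 2194 ranked higher in the sort than in total cells.

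**Figure D3:**
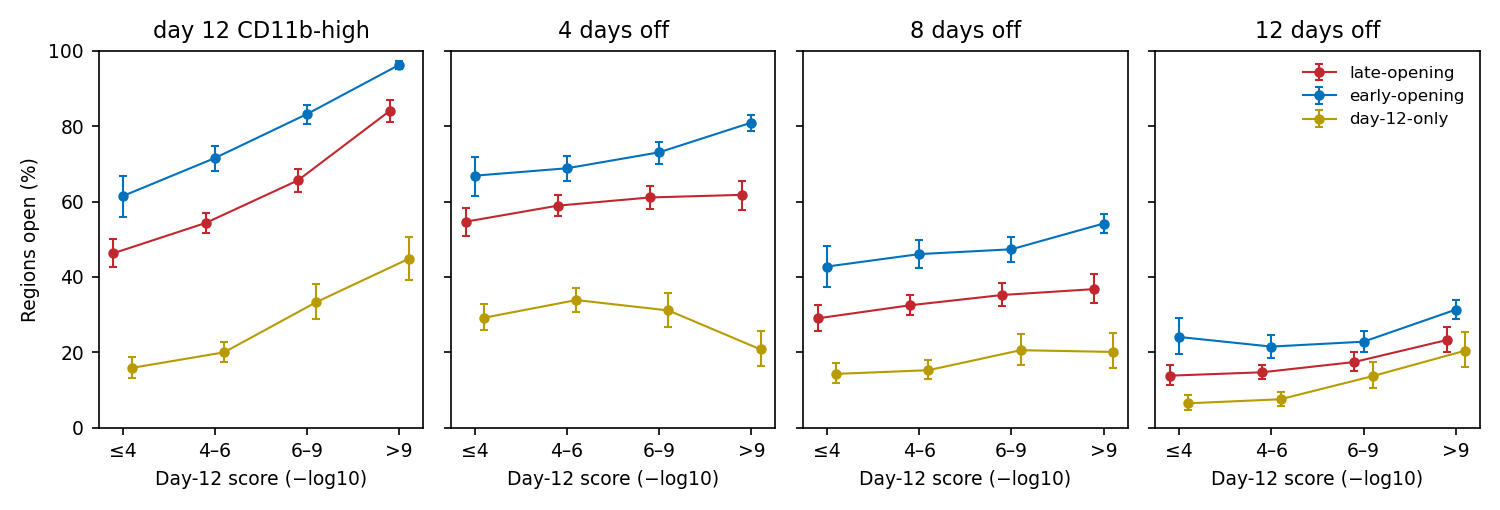
Share of regions open (percent, with exact 95% intervals covering counting error only) in the CD11b-high sort and at 4, 8 and 12 days off Dox, by day-12 score and class. Late-opening regions lie below early-opening ones in all 4 score ranges of all 4 panels, for example 84.1% against 96.3% in CD11b-high cells above a score of 9.

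After withdrawal the share of late-opening regions that were open was 59.1% at 4 days (57.5 to 60.8), 33.3% at 8 days (31.7 to 34.8) and 16.8% at 12 days (15.6 to 18). Over all regions it was 72.7%, 59.0% and 45.3%, figures that follow the length of the 3 lists and count regions called only off Dox. Early-opening regions were open in 74.8%, 49.5% and 26.2%, and late minus early was -15.7 points at 4 days (-17.9 to -13.5), -16.2 at 8 days (-18.5 to -13.9) and -9.47 at 12 days (-11.4 to -7.55). Day-12-only regions were open in 30.2%, 16.6% and 10.1%. With every list cut to its best 31867 summits, the length of the shortest, late-opening regions numbered 2246 and were open in 43.7%, 26.8% and 24.4%, against 58.4%, 39.6% and 34.4% of early-opening regions. Late-opening regions were again below early-opening ones at each time, and the step between 8 and 12 days was smaller than with the full lists. Here too, the part of how many choosing lists had to call a region was not tested.

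**Figure D4:**
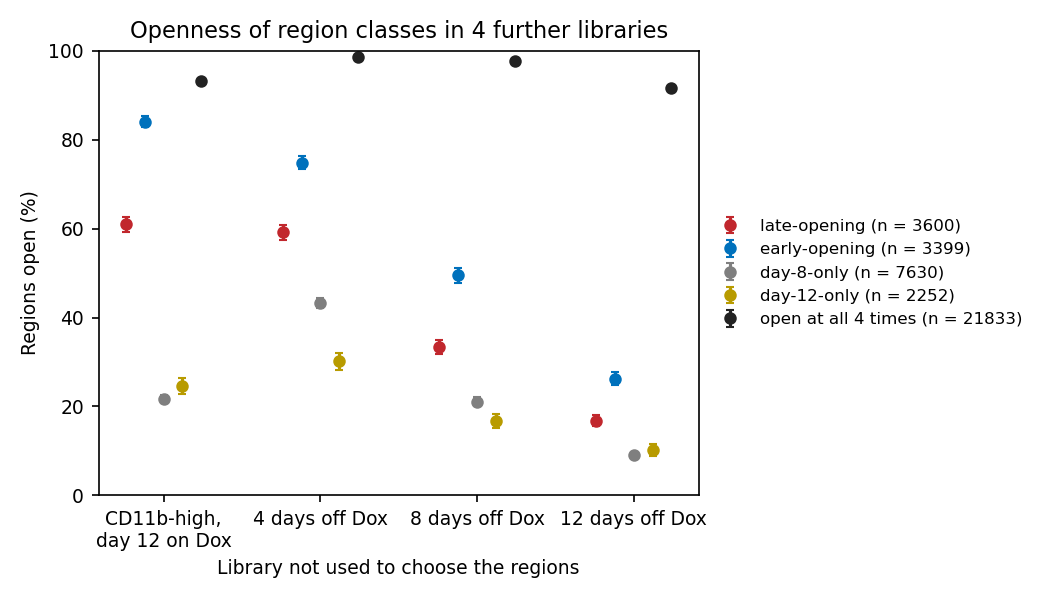
Share of regions open (percent, with exact 95% intervals covering counting error only) in the 4 libraries that the rule did not use, for 5 classes defined by the day-0, 4, 8 and 12 lists. Late-opening regions fall between the early-opening and the single-day classes, with 60.9% in CD11b-high cells and 59.1%, 33.3% and 16.8% at 4, 8 and 12 days off. The classes follow the same order in how many of the choosing lists had to call a region, and the part of this was not tested.

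Single regions differed in the times off Dox at which they were open. None of the 3 lists off Dox held 1265 members, 35.1%, and 955, 26.5%, were open at 4 days alone. Another 681 were open at both 4 and 8 days, and 375, 10.4%, at every time. The other 4 orders, in which a call came back or came late, made up 118, 95, 47 and 64 regions, together 9%. Over all regions, which include those called only off Dox, the shares were 18.2% for none and 18.1% for 4 days alone. They were 13.3% for 4 and 8 days, 39.0% for every time and 11.4% for the other orders. The 3 lists become shorter with time off, and with lists of equal length, an alternative chosen after seeing the data, late-opening regions had 46.5%, 16.5%, 9.48%, 11.8% and 15.8% in the same order. The shares that followed a single loss of the call were thus smaller, and that of other orders larger, once list length was the same. Of members open at 4 days off, 49.6% were open at 8 days (47.5 to 51.7), against 62.4% of early-opening regions (60.5 to 64.3). Of those open at both, 35.5% were open at 12 days, against 45.7%.

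Members open in CD11b-high cells were also the stronger ones at day 12, with a median percentile of 29.6 against 17.4 in the members not open there, and the part of strength in what follows was not tested. They were open in 60.8%, 34.6% and 18.2% at 4, 8 and 12 days off, against 56.5%, 31.2% and 14.5% of the members not open in that sort. The differences were 4.26 points (0.965 to 7.56), 3.49 points (0.333 to 6.6) and 3.72 points (1.23 to 6.14). Flanked and isolated members differed more: flanked members were open in 49.6%, 38.2% and 35.1%, against 61.2%, 32.2% and 12.9% of isolated members. In CD11b-high cells the intervals of flanked and isolated members overlapped, at 59.8% (55.8 to 63.6) and 61.2% (59.4 to 62.9).

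**Figure D5:**
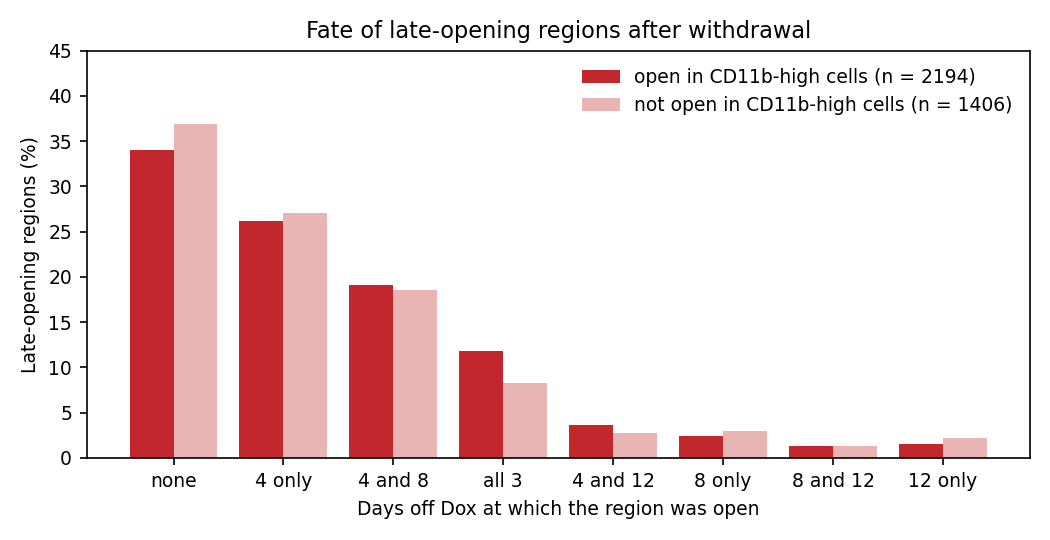
Percent of late-opening regions by the days off Dox at which they were open, for the 2194 open in CD11b-high cells and the 1406 not open there. In both groups "none" is the most frequent, at 34.0% and 36.9%, and "all 3" holds 11.8% and 8.25%.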

How the data were processed

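ATAC-seq libraries of AML246 cells were deposited by the authors as lists of peak summits, 1 base and 1 score per peak, called per library. The build is mm10 and the tools named are Picard 2.14.0 and MACS2, per the submitters' processing notes. Per the labels' protocols, libraries were prepared with a Nextera kit from 50000 cells, selected for 200 to 700 bp and sequenced as 75 bp paired-end reads. Neither aligner, MACS2 version nor depth in reads is given in these sources. Deposited scores were read as −log10 values, of p-values or else of q-values, because the smallest scores of the lists lie near that of 0.05. Which of the 2 is not given, and scores rank summits only within a list. A call rests on the authors' threshold and on depth, so weak regions can be missed in 1 list and called in the next.

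From these lists, regions were built from summits on chromosomes 1 to 19, X and Y, extended by 150 bp to each side, with summits up to 300 bp apart merged. Regions went to the protein-coding gene nearest to them, up to 100 kb away, in the RefSeq GRCm38.p6 table (21887 genes), and 320 of the 321 list genes were matched. Motifs were searched in RefSeq promoter windows of 300 bases, chromosome 18 left out. No genome was used, so sequences of distal regions were not analysed here. Shares carry Clopper-Pearson and differences Newcombe 95% intervals, which cover counting error only, while neighbouring regions are not independent. With 1 library per group no test across libraries was made.

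The rule, the gene lists and the named items were chosen with earlier results of these data known. Named were the 12 genes with most late-opening regions, up to 4 genes of each of 20 lists, Spi1, Itgam, Kit and Csf1r, the 8 strongest regions, and the 4 strongest open in CD11b-high cells that were open at all or at none of the 3 times off. The isolated regions, the score ranges, the list of isolated promoters by role and Immt as a printed contrast were added after their values were seen. A few items picked by these rules are not reported here. Alternatives were the summit half-width, score minimums of 5 and 10, equal list length, 1 kb without an earlier summit and a 2.5 kb limit for gene ends. Scripts were tested on simulated lists with known members. Python 3.11.15, pandas 2.3.3, numpy 2.4.6, scipy 1.17.1 and matplotlib 3.10.9 were used.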

Additional observations from a re-analysis of the deposited data

How the results depend on the processing

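No paired analysis was possible because each group is 1 library. The number of late-opening regions was 1500 with summits scoring at least 10 in all lists, 2246 with lists of equal length and 355 where both day-8 and day-12 scores had to reach 10. The share open in CD11b-high cells became 58.6% and 55.9% with score minimums of 5 and 10 in all lists, 69.2% with equal lists and 88.2% with scores of at least 10 at day 8 and day 12. At 4 days off it was 61.0% with 250 bp to each side, 61.1% and 67.5% with the score minimums of 5 and 10, 43.7% with equal lists, 61.2% for isolated regions and 62.8% for those scoring at least 10. At 8 days off it was 35.7% with the minimum of 10 in all lists, 26.8% with equal lists and 39.2% for those scoring at least 10 at both days. At 12 days off it was 14.6% with 250 bp, 12.3% with the minimum of 10, 24.4% with equal lists, 12.9% for isolated regions and 28.5% for those scoring at least 10 at both days. Near gene ends lay 13.8% with 75 bp, 6.96% with 250 bp, 4.58% of isolated regions, 29.3% of those scoring at least 10 at both days, and 18% within 2.5 kb. With the CD11b-high list in place of the day-12 list, chosen after seeing the data, the share open at 8 days off was 31.0%. Of the orders of calls off Dox, those with lists of equal length, an alternative also chosen after seeing the data, were 46.5% open at no time, 16.5% at 4 days alone, 9.48% at 4 and 8 days, 11.8% at every time and 15.8% in other orders. With near-identical promoter copies counted once, chosen likewise, the AP-1 difference of isolated late minus isolated early windows was 14.9 points, with an interval that held 0, and that of the PU.1/ETS core against all early windows was -1.44 points. The cause of these shifts was not tested, beyond that fewer summits or a wider limit enter by construction. The other 31 values kept to the interval of the value reported, to 1.5 times the number of regions or, for motif differences, to their sign and side of 0. The order of late-opening below early-opening regions held in all 4 libraries with equal lists and with a score minimum of 10, where late and early shares were 55.9% and 79.4% in CD11b-high cells and 12.3% and 19.7% at 12 days off. Read depth limits every call, and 1 library decides each time point.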

Other observations

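Regions open at exactly 2 of the 4 restoration times were most often those of day 8 and day 12. These were the 3600 late-opening regions, against 2272 regions of day 0 and 8, 1776 of day 4 and 8, 1253 of day 0 and 4, 407 of day 0 and 12 and 273 of day 4 and 12. With every list at the length of the shortest, the order changed, with 2246 for day 8 and 12 and 2347 for day 0 and 4. In CD11b-high cells 60.9% of the late-opening regions were open. The shares were 38.1% for day 4 and 12, 36.4% for day 4 and 8, 34.9% for day 0 and 12, 31.1% for day 0 and 8, and 16.4% for day 0 and 4. At 4 and 8 days off, late-opening regions had 59.1% and 33.3%, above only the day-4 and day-12 regions, with 49.8% and 30.8%. At 12 days off their 16.8% was the lowest share. The next were 20.6% for day 4 and 8 and 21.2% for day 4 and 12, and the pairs with day 0 had 39.1% to 45.9%.

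Late-opening regions rarely lay in groups. Linking members at most 10 kb apart gave 3380 single regions, 105 pairs, 2 runs of 3 and 1 run of 4. An early-opening region lay within 10 kb of 6.89% of late-opening regions (6.08 to 7.77), against 6.62% of day-8-only and 6.84% of day-12-only regions.

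By chromosome, the share of regions that were late-opening was 0 of 9 on chromosome Y, and among the other chromosomes lowest on chromosome 10, at 3.99% (3.44 to 4.61), and highest on chromosome 13, at 7.03% (6.07 to 8.10). Chromosome X had 6.99% (5.70 to 8.46) late-opening and 3.39% early-opening regions. Chromosome 13 holds Pde4d, Sema4d, Syk, Chrm3 and Irf4, and it made up 3.34% of the day-0 list, 3.66% of the day-8 list and 3.76% of the day-12 list.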
